A study of Mus musculus with 10 samples.

Results

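The genes described here serve the endoplasmic reticulum (ER) of the pancreas: protein folding, translocation into the ER, disposal of misfolded proteins and the unfolded protein response. They are a list of 42 genes chosen by name, in 6 branches, of which 41 were measured among 19938 genes tested. The branches are 4 genes of stress sensors and their transcription factor, 15 of chaperones and folding enzymes, 7 of ER-associated degradation (ERAD), 9 of the translocon, 2 of the COPII coat of ER exit vesicles and 5 of the PERK-ATF4 arm. Sec61g, the gamma subunit of the SEC61 channel, was not analysed here because each of its 4 probe clusters carried several gene symbols.

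RNA of mouse pancreas was measured on Affymetrix whole-transcript arrays in 5 control and 5 DKO samples, all of mixed strain background. The DKO genotype reads PDX1Cre, Mst1-/-, Mst2L/L, with loss of the Hippo kinases MST1 and MST2. The Mst1 allele is null in all cells, while Mst2 is lost only where Cre is driven by Pdx1, a gene of pancreatic progenitors, so tissue cells that Cre did not reach would lack MST1 alone. The labels give the control genotype only as control, and no age, and do not state that each array is a different animal, so the p-values reflect only how these samples scatter, which may be technical.

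Acinar cells of the pancreas make digestive enzymes in very large amounts, and their cytoplasm is filled with rough ER. Nascent enzymes enter through the SEC61 channel, are folded by chaperones such as BiP and by disulfide isomerases, and leave in COPII vesicles, while failed products are drawn back to the cytosol by ERAD. When folding falls behind, IRE1, PERK and ATF6 sense it: IRE1 splices the mRNA of XBP1, PERK slows translation and favours ATF4, and ATF6 is cut to release a transcription factor.

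Array medians over all clusters were 7.12 to 7.15 on the log2 scale, and pairs of arrays correlated across the genes tested with r from 0.976 to 0.995. Stk4, the gene of MST1, measured 5.15 ± 0.09 in control and 5.13 ± 0.06 in DKO (SD, n = 5 each), a low level that gave no check of the labels, and Stk3, the gene of MST2, was not analysed here. The 10 measured acinar markers had array means of 12.51 to 12.76 in control and 12.25 to 12.56 in DKO. Of their changes 10 of 10 lay below 0, where 52.4% of all genes did. Past the test was 1, Rbpjl (-0.45 on the log2 scale, limma adjusted p = 0.0225), a subunit of the acinar PTF1 complex. The other larger changes were in Bhlha15 (-0.57), Ptf1a (-0.34) and Cela1 (-0.32). Cpa1, Cpb1, Cel, Clps, Ctrb1 and Cela2a had changes of only -0.07 to -0.01. Their group means were 13.33 to 13.71, close to the array maxima of 13.77 to 13.94. Of 6 duct markers 3 were higher past the test, Krt7 (1.22), Cldn4 (1.37) and Krt19 (0.41), where 2.08% of all genes were. The other 3 did not pass, Cftr at 0.50, Muc1 at -0.03 and Sox9 at -0.26 (adjusted p = 0.149), with all DKO arrays below all controls for Sox9. Hepatocyte markers had an array mean of 11.45 in DKO replicate 1 and of 6.58 to 7.70 in the other 9 arrays. Plasma and B cell markers, from cells that are also rich in ER, had array means of 5.90 to 6.53 in control and 5.78 to 6.59 in DKO, and 0 of 7 passed limma (0 also at an unadjusted p of 0.05). Markers of islets (7), leukocytes (6), adipocytes (4) and fibroblasts (7) gave 0 calls by limma. At an unadjusted p of 0.05, 1 leukocyte marker was higher (16.7%, against 9.18% of all genes). At the same threshold 3 islet markers were lower (42.9%, against 5.66%). All 7 islet changes lay below 0, as for the acinar markers, with a median of -0.14, against -0.07 for the acinar ones. In bulk tissue, fewer cells of a type and less RNA per cell cannot be told apart, and the part of these markers in the results below was not tested.

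The promoters of some of these genes share letters that few other promoters hold. Windows from 250 bases before to 50 after the start were found in RefSeq (GRCm38.p6) for 36 of the 42 genes and for 27025 genes in all, and were searched on both strands. The ER stress response element, ERSE, is read by NF-Y at one end and by ATF6 or XBP1 at the other. As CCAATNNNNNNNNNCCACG, it occurred in 9 of 36 genes (25%), against 0.137% of all genes, and in 7 of 13 chaperone genes, 2 of 6 ERAD genes and none of the 7 translocon, 5 PERK-ATF4, 3 sensor and 2 COPII genes with a window. The matches are shown because Derl3, the gene that passed the test below, holds one in common with BiP, GRP94 and other folding genes. Each is read on the strand of the match with 10 bases on both sides, positions count from the gene's start, and capitals mark the fixed letters.
Hspa5, chr2:34772015-34772053, plus strand, match at -65 to -47: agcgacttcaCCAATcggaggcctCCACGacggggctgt
Hsp90b1, chr10:86705628-86705666, minus strand, match at -212 to -194: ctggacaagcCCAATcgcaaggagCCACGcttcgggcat
Hsp90b1, chr10:86705523-86705561, plus strand, match at -107 to -89: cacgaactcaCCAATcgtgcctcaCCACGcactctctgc
Dnajc3, chr14:118937817-118937855, plus strand, match at -105 to -87: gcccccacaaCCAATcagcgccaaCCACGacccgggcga
Pdia6, chr12:17266481-17266519, plus strand, match at -98 to -80: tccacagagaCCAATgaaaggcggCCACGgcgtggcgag
Calr, chr8:84847065-84847103, plus strand, match at -162 to -144: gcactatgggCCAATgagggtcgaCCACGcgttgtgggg
Canx, chr11:50325790-50325828, minus strand, match at -145 to -127: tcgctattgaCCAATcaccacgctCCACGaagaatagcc
Creld2, chr15:88819510-88819548, minus strand, match at -126 to -108: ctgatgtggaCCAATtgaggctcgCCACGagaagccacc
Syvn1, chr19:6046522-6046560, plus strand, match at -44 to -26: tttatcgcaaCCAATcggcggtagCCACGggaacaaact
Derl3, chr10:75893232-75893270, minus strand, match at -156 to -138: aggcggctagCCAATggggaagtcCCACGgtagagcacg

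Other elements were rarer than ERSE among the 36 genes. ERSE-II, ATTGGNCCACG, was in 2 of 36 genes (5.56%) against 0.0444% of all genes. The core of the UPR element, TGACGTGG, was in 1 of 36 (2.78%) against 0.714%. The composite element of C/EBP and ATF4 (CARE), TGATGNAA, was in 3 of 36 (8.33%) against 4.51%. Over all genes, these last 2 were more common than ERSE (0.137%). The 3 matches below lie before the starts of an ERAD gene, a COPII gene and an ATF4 target, and capitals mark the fixed letters. A match is a description of letters, not a bound site.
Herpud1, chr8:94386367-94386397, plus strand, match at -52 to -42: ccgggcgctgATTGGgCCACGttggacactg
Sec24d, chr3:123267460-123267487, plus strand, match at -26 to -19: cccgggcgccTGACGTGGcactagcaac
Chac1, chr2:119351039-119351066, minus strand, match at -193 to -186: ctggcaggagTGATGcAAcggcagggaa

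**Figure D1:**
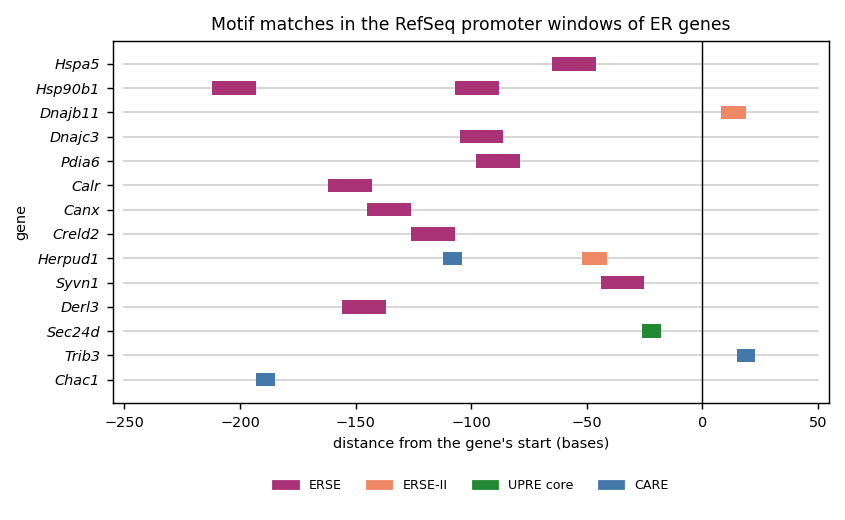
Position of each motif match in the RefSeq promoter windows of 14 ER genes, in bases from the start of the gene (black line), with colours for the 4 motifs. All ERSE matches lie before the start, from -212 in Hsp90b1 to -26 in Syvn1, and the chaperone genes hold most of them.

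The main question was whether these genes differed between DKO and control pancreas. With limma and adjustment over all genes tested, 1 of the 41 genes passed an adjusted p of 0.05, Derl3, which fell. That is 2.44% of them, against 2.44% of all genes, so the share was that of the background with both directions pooled. Calls over all genes were mostly higher in DKO (2.08%, against 0.366% lower). The share of the 41 called lower rests on 1 gene. None of the 41 was higher past the test. At an unadjusted p of 0.05, 4 were higher (9.76%, against 9.18% of all genes) and 9 lower (22.0%, against 5.66%). Groups did not overlap in 1 gene that was higher (Eif2ak3; 3.52% of all genes) and in 3 that were lower (Derl3, Ssr4 and P4hb; 1.28% of all genes). The median log2 change was -0.04 over the 41 genes and -0.006 over all genes, with 26 of 41 changes below 0 (63.4%, against 52.4%). The 95% interval of the change lay within 0.5 of 0 for 33 of the 41 genes and within 0.25 for 19. Over all genes tested, 85.0% of calls were higher in DKO, and 72.5% when array medians were subtracted.

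**Figure D2:**
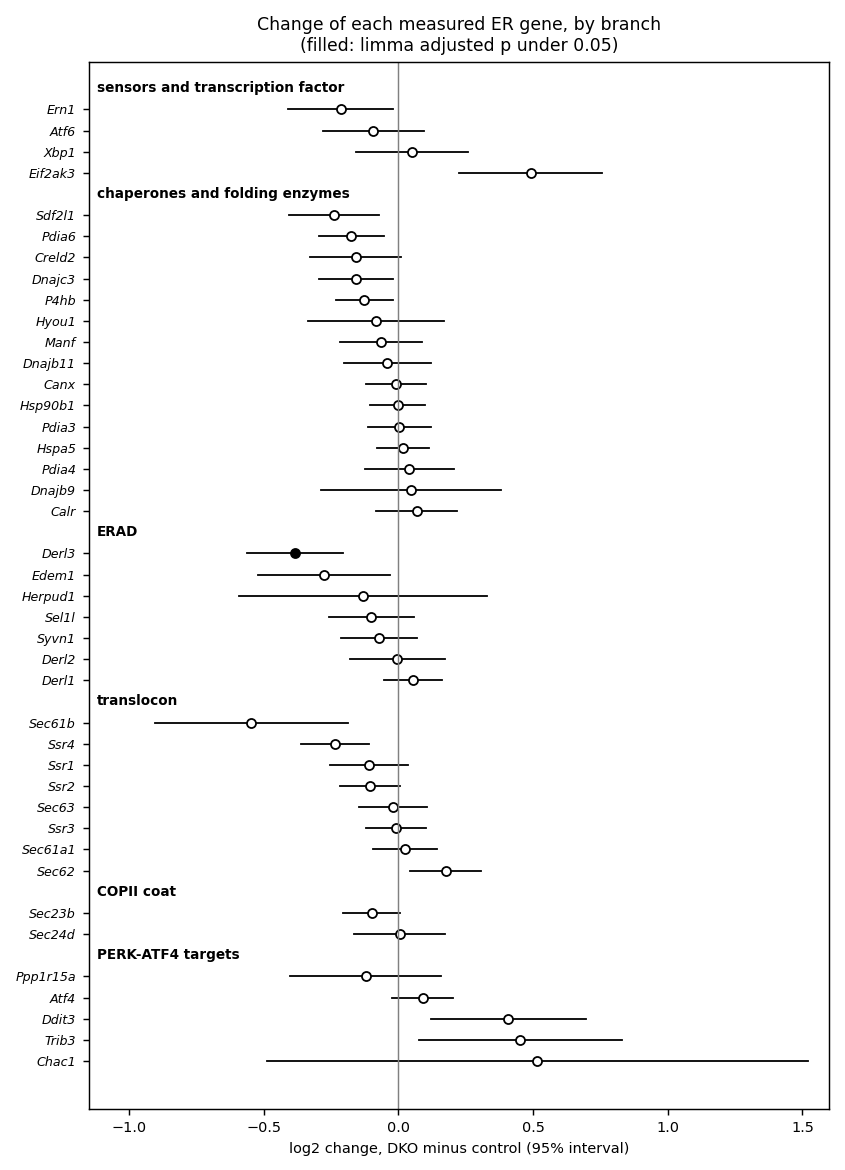
Log2 change of each of the 41 measured genes, DKO minus control, with its 95% interval from limma, by branch; a filled point marks an adjusted p under 0.05. Derl3 is the only filled point, and Chac1 has the widest interval (-0.49 to 1.52).

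None of the 15 chaperones and folding enzymes passed limma. At an unadjusted p of 0.05, 0 were higher and 4 lower (26.7%), against 9.18% and 5.66% of all genes. The changes ran from -0.24 to 0.07 with a median of -0.04, and all 15 intervals lay within 0.5 of 0. Hspa5, the gene of the Hsp70 chaperone BiP and a standard marker of ER stress, measured 12.29, 12.21, 12.27, 12.20 and 12.29 in control and 12.29, 12.24, 12.22, 12.27 and 12.33 in DKO, values here and throughout being given in the order of the replicate numbers. The groups overlapped, and the change of 0.02 ± 0.04 (SE) had an interval of -0.08 to 0.11 (-0.02 after array medians were subtracted). Hsp90b1, the ER Hsp90 GRP94, had a change of -0.002 (interval -0.11 to 0.10), and the lectin chaperones Canx and Calr had -0.01 (-0.12 to 0.10) and 0.07 (-0.08 to 0.22). Calr, the largest change above 0 in the branch, measured 11.55, 11.37, 11.46, 11.59 and 11.65 in control and 11.57, 11.76, 11.56, 11.47 and 11.60 in DKO, again overlapping. Pdia3 and Pdia4, disulfide isomerases, had changes of 0.003 and 0.04, and Dnajb9, a J-domain cochaperone of BiP, one of 0.05. The highest level in the branch was 12.44, where array maxima were 13.77 to 13.94.

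Sdf2l1, a partner of ER J-domain proteins, had the lowest change in the branch, followed by Pdia6, a disulfide isomerase. Sdf2l1 measured 11.29, 10.86, 11.21, 11.09 and 11.15 in control and 10.86, 10.88, 10.82, 10.87 and 10.98 in DKO (change -0.24 ± 0.08 SE, adjusted p = 0.156). Control replicate 2 lay among the DKO arrays and the other 4 above them, and without that array the change was -0.30 and passed (adjusted p = 0.0374). No other of the 10 fits that each left out 1 array called Sdf2l1 (highest adjusted p 0.342, without control replicate 3). Pdia6 measured 10.62, 10.54, 10.69, 10.71 and 10.72 in control and 10.45, 10.56, 10.46, 10.38 and 10.55 in DKO (-0.18 ± 0.05 SE, adjusted p = 0.149), with only control replicate 2 inside the DKO range. P4hb, the archetypal disulfide isomerase, measured 12.33, 12.32, 12.39, 12.33 and 12.34 in control and 12.18, 12.12, 12.28, 12.19 and 12.31 in DKO. All DKO arrays lay below all control arrays, yet the change was small (-0.13 ± 0.05 SE, adjusted p = 0.244). Dnajc3, the cochaperone p58IPK, and Creld2 had changes of -0.16 each (adjusted p = 0.277 and 0.366). Hyou1, a nucleotide exchange factor of BiP, had a change of -0.08, Manf, a secreted ER stress protein, one of -0.07 and Dnajb11, another cochaperone of BiP, one of -0.04. Chaperone genes with and without an ERSE match thus stood on both sides of 0. The 9 genes of all branches with a match had a median change of -0.07, with 2 above and 7 below 0, against -0.01 in the 26 measured genes whose window held none.

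ERAD held the gene that passed. Derl3, a derlin of the channel that returns misfolded proteins to the cytosol, measured 11.61, 11.34, 11.49, 11.63 and 11.55 in control and 10.98, 11.07, 11.27, 11.06 and 11.33 in DKO. All 5 DKO arrays lay below all controls, the gap being narrow between control replicate 2 and DKO replicate 5. The level fell from 11.52 ± 0.12 to 11.14 ± 0.15 (SD, n = 5 each), a log2 change of -0.38 ± 0.08 (SE, adjusted p = 0.0359), which is 1.30-fold. The call ended on leaving out any of 7 arrays, control replicate 1 (adjusted p = 0.0804), 3 (0.0774), 4 (0.0724) or 5 (0.0831) or DKO replicate 1 (0.0745), 2 (0.0811) or 4 (0.0876), while the change ran from -0.43 to -0.34. With unmoderated variance the adjusted p was 0.0840. DKO replicate 1, with the high hepatocyte markers and the lowest acinar mean (12.25), had the lowest Derl3 level, and without it the change was -0.34. The bases before the start of Derl3 hold 1 ERSE match, here on the opposite strand and marked in capitals.
Derl3, chr10:75893148-75893397, plus strand: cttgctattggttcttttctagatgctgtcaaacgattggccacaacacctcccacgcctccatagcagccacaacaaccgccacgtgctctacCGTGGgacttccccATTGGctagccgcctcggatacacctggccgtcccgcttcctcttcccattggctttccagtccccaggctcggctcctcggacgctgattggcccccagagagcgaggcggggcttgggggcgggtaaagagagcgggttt

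Of the other derlins, Derl1 measured 10.73, 10.53, 10.62, 10.69 and 10.62 in control and 10.72, 10.69, 10.63, 10.69 and 10.72 in DKO, a change of 0.05 ± 0.05 (SE), and Derl2 had a change of -0.005 ± 0.08 (SE). Whether Derl3 differed from them in its change was not tested. Edem1, a lectin-like protein that hands misfolded glycoproteins to ERAD, measured 11.91, 11.81, 11.97, 12.14 and 11.75 in control and 11.38, 11.83, 11.76, 11.40 and 11.83 in DKO (-0.28 ± 0.11 SE, adjusted p = 0.279). Only DKO replicates 1 and 4 lay well below the controls, the same arrays that had the lowest acinar marker means (12.25 and 12.33). Herpud1, a membrane scaffold of ERAD induced by ER stress, was the most variable of the branch, from 11.62 to 12.67 in control and from 11.55 to 12.54 in DKO, and its change of -0.13 had an interval of -0.59 to 0.33. Sel1l and Syvn1, adaptor and ubiquitin ligase of the central ERAD complex, had changes of -0.10 and -0.07. In the branch 6 of 7 changes lay below 0 (85.7%, against 52.4% of all genes), with a median of -0.10. At an unadjusted p of 0.05, 0 were higher and 2 lower (28.6%), against 9.18% and 5.66% of all genes.

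In the translocon, none of 8 measured genes passed limma, and 6 changes lay below 0 (75%, against 52.4% of all genes). At an unadjusted p of 0.05, 1 was higher (12.5%) and 2 lower (25%), against 9.18% and 5.66% of all genes. Sec61b, the beta subunit of the channel, had the largest fitted decrease of all 41 genes. It measured 10.43, 9.97, 9.97, 10.22 and 10.59 in control and 9.31, 9.87, 9.81, 9.43 and 10.03 in DKO (change -0.55 ± 0.16 SE, adjusted p = 0.130). The groups overlapped only through DKO replicate 5, and DKO replicates 1 and 4 were again the lowest. The 2 other Sec61b clusters gave changes of -0.46 and -0.47. Ssr4, the delta subunit of the translocon-associated protein complex, measured 11.89, 11.75, 11.84, 11.86 and 11.73 in control and 11.44, 11.56, 11.58, 11.63 and 11.68 in DKO. The groups did not overlap, and the change of -0.23 ± 0.06 (SE) lay just outside the threshold (adjusted p = 0.0614). It passed when array medians were subtracted (0.0366), when the dimmest 50% of genes were removed (0.0388) and with trended and robust variance (0.0338).

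The partner subunits of the same complex had changes of -0.11 (Ssr1), -0.11 (Ssr2) and -0.01 (Ssr3), and their difference from Ssr4 was not tested. Sec61a1, the pore itself, had a change of 0.02 (interval -0.09 to 0.14), and Sec63, which recruits BiP to the channel, one of -0.02. Sec62, which works with SEC63 in translocation after translation, had the largest change above 0 in the branch, at 9.61, 9.61, 9.60, 9.79 and 9.50 in control and 9.75, 9.83, 9.90, 9.71 and 9.79 in DKO (0.18 ± 0.06 SE, adjusted p = 0.195). All 5 DKO arrays lay above the control mean, and control replicate 4 lay within the DKO range. Of the COPII coat, Sec23b measured 10.85, 10.74, 10.91, 10.84 and 10.84 in control and 10.68, 10.74, 10.69, 10.75 and 10.81 in DKO (-0.10 ± 0.05 SE, adjusted p = 0.370). Sec24d, its partner in cargo selection, measured 10.41, 10.09, 10.25, 10.38 and 10.52 in control and 10.25, 10.33, 10.39, 10.30 and 10.40 in DKO (0.004 ± 0.08 SE), with all DKO arrays inside the control range.

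**Figure D3:**
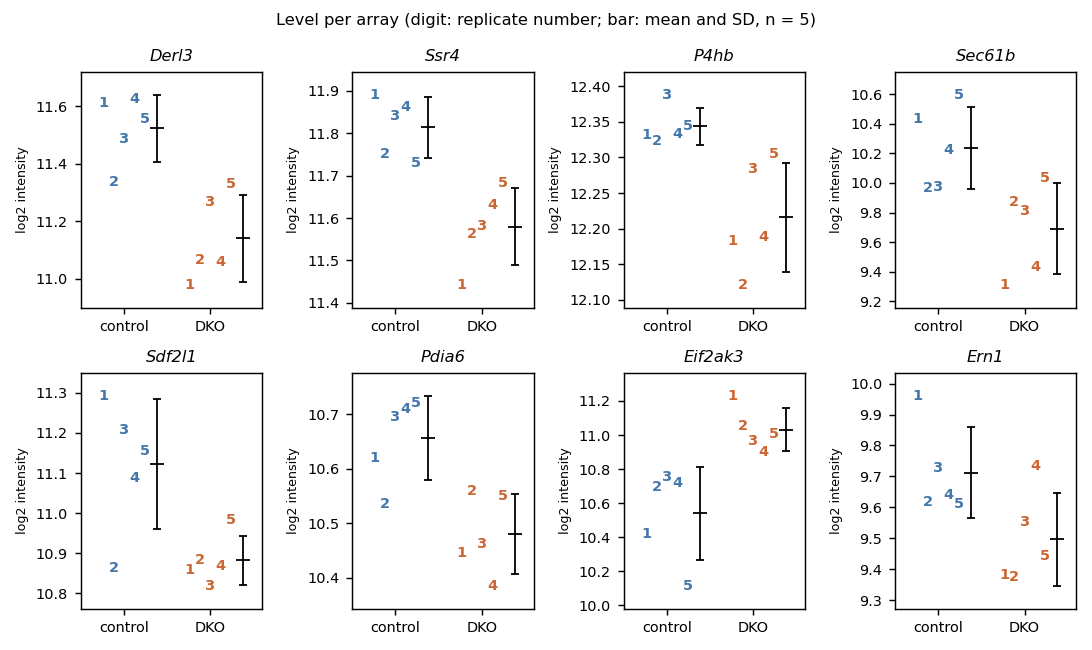
Log2 intensity of 8 genes in each array, control in blue and DKO in orange, the digit being the replicate number and the bar the mean and SD (n = 5); each panel has its own scale. Derl3, Ssr4 and P4hb lie lower in all DKO arrays, and Eif2ak3 higher.

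None of the 4 sensor genes passed limma. At an unadjusted p of 0.05, 1 was higher and 1 lower (25% each), against 9.18% and 5.66% of all genes. Eif2ak3, the gene of PERK, measured 10.42, 10.69, 10.75, 10.72 and 10.11 in control and 11.23, 11.05, 10.97, 10.90 and 11.00 in DKO. All DKO arrays lay above all controls, and the change was 0.49 ± 0.12 (SE), or 1.41-fold, with an interval of 0.23 to 0.76 and an adjusted p of 0.0623, just outside the threshold. It passed when the dimmest 50% of genes were removed (0.0388) and with trended and robust variance (0.0498), and without 1 array its adjusted p ran from 0.0654 to 0.127. Without control replicate 5, the lowest array, the change was 0.38.

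The other sensors gave smaller values. Ern1, the gene of IRE1 alpha, measured 9.96, 9.62, 9.73, 9.64 and 9.61 in control and 9.38, 9.37, 9.55, 9.73 and 9.44 in DKO, with DKO replicate 4 inside the control range (-0.21 ± 0.09 SE, adjusted p = 0.292). Atf6 measured 10.41, 9.98, 10.13, 10.29 and 10.20 in control and 9.97, 9.998, 10.12, 10.24 and 10.21 in DKO (-0.09 ± 0.09 SE, adjusted p = 0.641). Xbp1 measured 12.69, 12.30, 12.44, 12.39 and 12.26 in control and 12.30, 12.50, 12.35, 12.68 and 12.50 in DKO (0.05 ± 0.09 SE, adjusted p = 0.824). The groups overlapped in both genes. A cluster value sums the spliced and unspliced forms of Xbp1 mRNA, so it says nothing of splicing, and levels of mRNA say nothing of cleavage of ATF6 or phosphorylation of PERK.

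In the PERK-ATF4 arm, none of 5 genes passed limma. At an unadjusted p of 0.05, 2 were higher and 0 lower, against 9.18% and 5.66% of all genes. The median change was 0.41, and 4 of 5 changes lay above 0, where 52.4% of all genes lay below it. Array means over the 5 genes were 8.501 to 8.783 in DKO, all within the control range of 7.927 to 8.888. Control replicate 1 had the highest mean of all arrays. In each of Atf4, Ddit3, Trib3 and Chac1, 5 of 5 DKO arrays lay above the control mean, but those of Chac1 lay inside the control range. Ddit3, the gene of the proapoptotic factor CHOP, measured 7.70, 7.28, 7.29, 7.9999 and 7.66 in control and 8.04, 7.99, 7.81, 7.99 and 8.15 in DKO (0.41 ± 0.13 SE, adjusted p = 0.164). Control replicate 4 alone lay within the DKO range, and without it the change was 0.51 and passed (0.0402). It was the only call in 10 fits that each left out 1 array (highest adjusted p 0.357, without control replicate 3). Trib3, a pseudokinase that restrains ATF4 and AKT, measured 8.19, 7.35, 7.53, 7.65 and 7.14 in control and 8.08, 7.75, 7.94, 8.26 and 8.09 in DKO (0.45 ± 0.17 SE, adjusted p = 0.248). Here control replicate 1 alone lay within the DKO range, and without it the change was 0.61 and passed (0.0391). Again no other of these 10 fits called the gene (highest adjusted p 0.455, without control replicate 2).

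Chac1, a glutathione-degrading enzyme, had the widest spread of all 41 genes (pooled SD 0.84, against a median of 0.11 for the 41 and 0.12 for all genes). It measured 10.67, 7.69, 8.31, 9.47 and 8.47 in control and 9.34, 9.54, 9.19, 9.78 and 9.34 in DKO, so the DKO arrays lay close together inside a wide control range. Its change was 0.52 ± 0.46 (SE, adjusted p = 0.630). Without control replicate 1 it was 0.95 (0.157), and without control replicate 2 it was 0.21 (0.877). Atf4 itself, which is controlled largely through translation, measured 9.19, 9.09, 9.25, 9.27 and 9.16 in control and 9.34, 9.19, 9.30, 9.33 and 9.26 in DKO (0.09 ± 0.05 SE, adjusted p = 0.449). Ppp1r15a, the GADD34 subunit that reverses phosphorylation of eIF2 alpha, measured 8.70, 8.23, 8.51, 8.87 and 8.34 in control and 8.60, 8.17, 8.27, 8.56 and 8.44 in DKO (-0.12 ± 0.13 SE, adjusted p = 0.682). These groups overlapped, and Ppp1r15a had the only change below 0 in the branch.

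**Figure D4:**
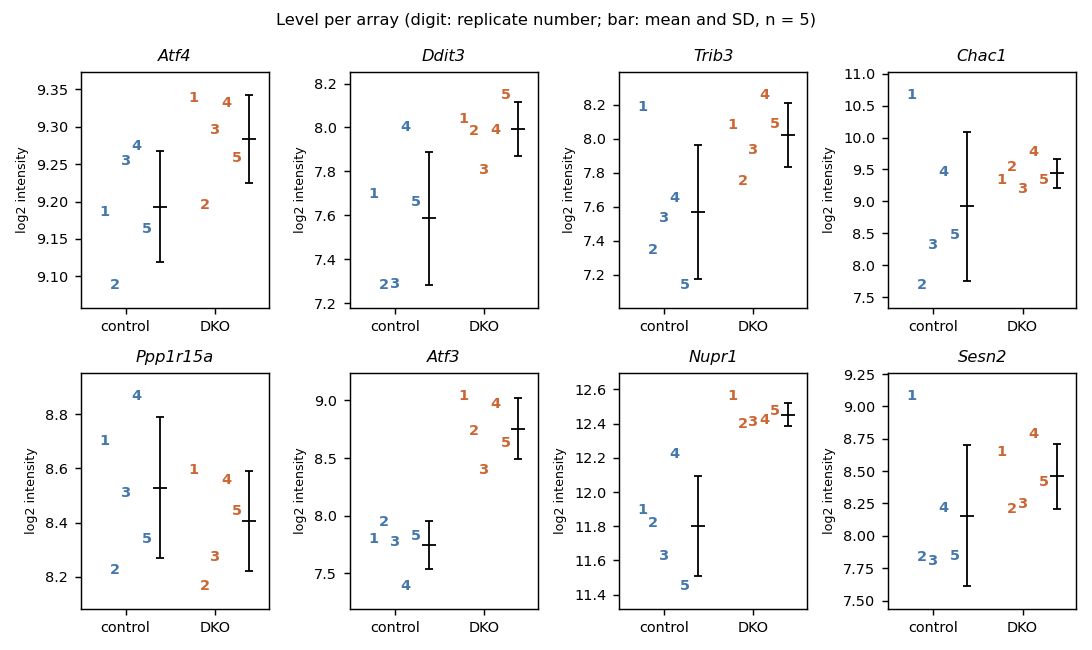
Log2 intensity of 5 genes of the PERK-ATF4 arm and of Atf3, Nupr1 and Sesn2 in each array, drawn as in the plot of folding and translocon genes. Atf3 and Nupr1 lie higher in all DKO arrays, and control replicate 1 is the highest control in Trib3, Chac1 and Sesn2.

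Neighbouring genes of the stress response were read from the same fit. Of 23 measured genes linked to ATF4 and the integrated stress response, 2 rose (8.7%, against 2.08% of all genes) and none fell. At an unadjusted p of 0.05, 4 were higher (17.4%, against 9.18% of all genes) and 3 lower (13%, against 5.66%). The median change was -0.01, and the list was chosen with earlier results of these data known. Atf3, a stress-induced transcription factor, measured 7.80, 7.95, 7.77, 7.39 and 7.82 in control and 9.04, 8.74, 8.40, 8.97 and 8.63 in DKO. It rose 2.02-fold (1.01 ± 0.13 SE, adjusted p = 0.00284), with no overlap and with a call in each of the 10 fits that left out an array. Nupr1, a chromatin protein induced by stress in acinar cells, measured 11.89, 11.82, 11.63, 12.22 and 11.45 in control and 12.56, 12.40, 12.41, 12.42 and 12.47 in DKO. It rose 1.57-fold (0.65 ± 0.12 SE, adjusted p = 0.0178), a call that ended without control replicate 3 (0.0551) and with unmoderated variance (0.0661). Wars1, the tryptophan tRNA synthetase, had a change of -0.62 (adjusted p = 0.131) and Eif2ak2, the kinase PKR, one of 0.29 (0.320), and neither passed.

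Control replicate 1 was the highest control in 13 of these 23 genes and control replicate 2 the lowest in 12. Sesn2, Cth and Stc2, named after their values were seen, measured 9.08, 10.40 and 9.88 in control replicate 1, against 7.81 to 8.21, 8.502 to 9.31 and 8.65 to 9.15 in the other 4 controls. High values in that one control array thus recurred in several genes of this arm, as in Trib3 and Chac1.

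The other lists held 1 call among them. Their counts at an unadjusted p of 0.05 stand against 9.18% of all genes higher and 5.66% lower. Of 30 further folding genes 1 fell, Txndc11, a thioredoxin-domain protein of the ER (-0.28 ± 0.06 SE, adjusted p = 0.0452), and none rose. That is 3.33%, against 2.44% of all genes called in either direction. At an unadjusted p of 0.05, 2 were higher (6.67%) and 7 lower (23.3%). The Txndc11 call ended on leaving out any array but DKO replicate 5 (highest adjusted p 0.1203, without control replicate 3). Fkbp11, a prolyl isomerase of secretory cells, had a change of -0.38 (adjusted p = 0.107), Tmx3, a membrane disulfide isomerase, one of 0.19 (0.134) and Pdia2, the pancreatic disulfide isomerase, one of -0.20 (0.140). The ERAD list of 21 measured genes gave 0 calls by limma. At an unadjusted p of 0.05, 1 was higher (4.76%) and 2 lower (9.52%). Its smallest p-values were for Edem2 (-0.24), Fam8a1 (0.16), Rnf5 (-0.21) and Herpud2 (0.12).

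Translocation, signal peptidase and N-glycosylation gave 0 calls by limma among 24 genes, although 19 changes lay below 0 (79.2%, against 52.4% of all genes). At an unadjusted p of 0.05, 2 were higher (8.33%) and 6 lower (25%), against 9.18% and 5.66% of all genes. The 2 catalytic subunits of signal peptidase had opposite signs. Sec11a had a change of 0.21 (adjusted p = 0.0555) and Sec11c one of -0.45 (0.0652). Sec61a2, the second gene of the pore, had a change of 0.17 (0.0652), and Krtcap2, a subunit of oligosaccharyltransferase, one of -0.15 (0.0981). Groups did not overlap in 2 genes of the list that were higher, Sec11a and Sec61a2 (3.52% of all genes). They also did not overlap in 2 that were lower, Sec11c and Krtcap2 (1.28% of all genes). ER exit and retrieval gave 0 calls among 21 genes, with Tmed3 (-0.19), Sec23a (0.17), Lman1 (-0.14) and Sec16b (-0.11) closest. At an unadjusted p of 0.05, 1 was higher (4.76%) and 2 lower (9.52%). Further sensors and transcription factors gave 0 calls among 13 (1 higher and 1 lower at an unadjusted p of 0.05, 7.69% each). Bhlha15, the acinar factor MIST1 and a regulator of the secretory apparatus, had a change of -0.57 (adjusted p = 0.225), with DKO replicate 1 the lowest array. Creb3 and Creb3l1, membrane-bound transcription factors, had changes of 0.22 (0.275) and -0.11 (0.421), and Rtcb, the ligase of Xbp1 splicing, had one of -0.09 (0.424). Ptf1a, another acinar factor, had a change of -0.34 (0.5996). Over the 132 genes of these lists, 2.27% passed, against the 2.44% of all genes, and the median change was -0.05. At an unadjusted p of 0.05, 8.33% were higher and 15.9% lower, against 9.18% and 5.66% of all genes. Changes below 0 made up 65.2%, against 52.4% of all genes.

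The arrays themselves differed in a way that ran across branches. Control replicate 2 was the lowest control in 29 of the 41 genes, against 18.0% of all genes, and in 13 of 15 chaperones and 6 of 8 translocon genes. Control replicate 1 was the highest control in 19 of 41, against 14.9% of all genes. Among DKO arrays, replicate 1 was the lowest in 17 of 41 (20.3% of all genes), and replicate 5 the highest in 17 (20.6%) and the lowest in none (25%). The mean over the 41 genes, relative to the control mean of each gene, was 0.15 in control replicate 1 and -0.16 in control replicate 2, and between -0.09 and 0.03 in the 5 DKO arrays. The DKO arrays thus lay between these 2 controls. Without control replicate 2 the median change of the 41 genes was -0.08, and without control replicate 1 or DKO replicate 1 it was -0.02.

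**Figure D5:**
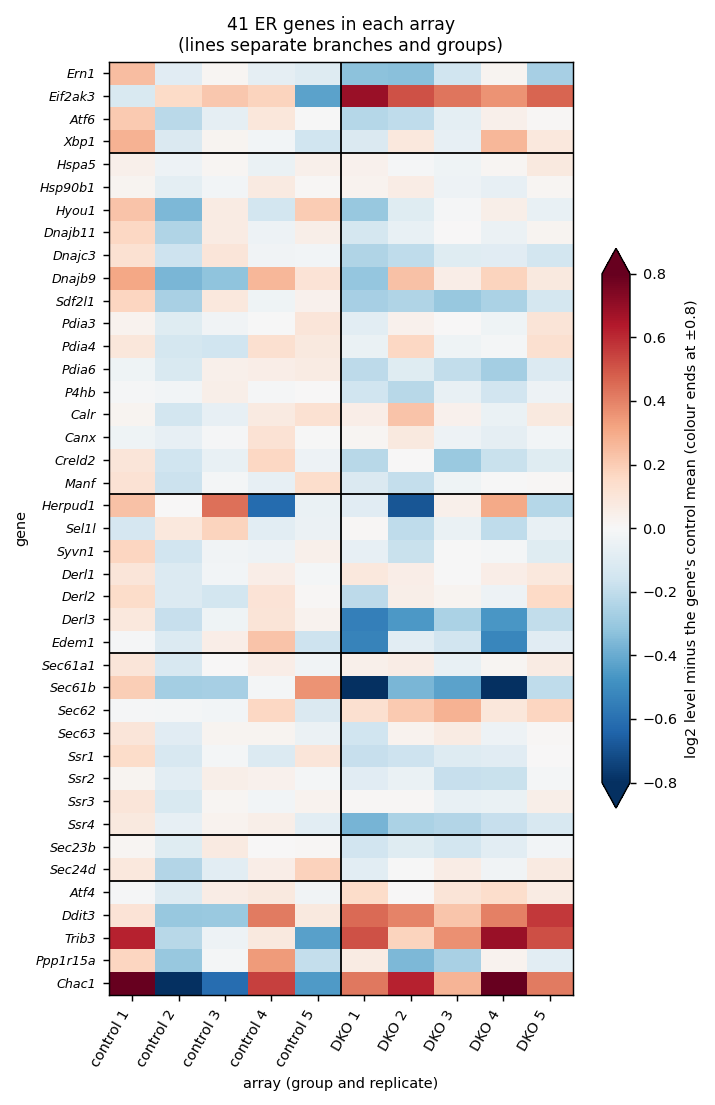
Level of the 41 genes in each of the 10 arrays as a difference from the control mean of the gene (log2 scale, red higher, blue lower), with lines between branches and groups. Control replicate 2 is mostly blue in the chaperone block, Eif2ak3 is red and Derl3 blue in all DKO arrays, and Chac1 changes sign among controls.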

How the data were processed

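The deposited file holds log2 intensities, 1 value for each transcript cluster and array, with array medians close to one another. They were made with Affymetrix Expression Console, per the submitters' processing notes, and the sources used here do not give its version or settings. Of 35556 clusters, 21789 had 1 gene symbol, 1621 several and 12146 none. Clusters with 1 symbol were kept (21698 matched RefSeq by gene identifier), and the brightest over all 10 arrays stood for each of 999 genes with more than 1, leaving 19938 genes.

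Groups were compared over all genes by lmFit and eBayes (limma 3.58.1, R 4.3.3; two-sided, Benjamini-Hochberg adjustment, threshold 0.05), whose adjusted p-values, SEs and 95% intervals (10.96 degrees of freedom) are the ones printed. With 5 arrays in each group, array number sets the precision (median SE 0.0754). Checked on simulated data for this comparison over 19938 genes, the fit recovered 70.1% of 67 genes changed by 0.5 (log2), 95.5% of 67 changed by 1 and 100% of 66 changed by 2. The simulation drew noise independently for each gene and held no change smaller than 0.5, so it gave no rate for smaller changes. The members and lists were chosen with earlier results of these data known. All members were accounted for, with values by array for calls, the sensors, the extremes of each branch and some chosen after their values were seen, and up to 4 genes with the smallest p per further list. Of 138 further genes 132 were measured. Alternatives were other normalizations, filters on dim genes, variance models, array weights, averaged clusters, leaving out each array and the replicate block.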

Additional observations from a re-analysis of the deposited data

How the results depend on the processing

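Of the 41 genes, 28 kept the direction of their change in all 19 alternative fits. The number of the 41 genes called (1) was 2 when array medians were subtracted, 3 without the dimmest 50% of genes, 3 with trended and robust variance, and 0 with unmoderated variance or the replicate block (Derl3 adjusted p = 0.122, Nupr1 0.0618, Txndc11 0.205 under the block), and between 0 and 2 when 1 array was left out. The number of genes called over all (487) was 298 with unmoderated variance, 178 with the replicate block and 260 to 433 when 1 array was left out, the largest drops being without control replicate 2 (268) or 3 (260) or DKO replicate 1 (316), 4 (324) or 5 (303). Calls in the further lists (3) were 6 without the dimmest 50% of genes, 5 with trended and robust variance, 1 with the replicate block and 1 to 3 when 1 array was left out. Replicate numbers did not pair the arrays: same-numbered arrays correlated in their deviations at -0.27, -0.20, 0.29, -0.22 and 0.21, and the block is a number only. The median change of the 41 genes lay between -0.08 and -0.02 in all settings. Directions that turned under other normalizations or array weights were of changes near 0. After quantile normalization again these were Hsp90b1 (0.0128), Canx (0.0173), Ssr3 (0.00374) and Sec24d (-0.00751). After subtraction of medians they were Hspa5 (-0.0244), Pdia3 (-0.0372), Pdia4 (-0.000727), Sec61a1 (-0.0165) and Sec24d (-0.0363). With array weights they were Pdia3 (-0.00977), Derl2 (0.00771), Sec63 (0.00301) and Sec24d (-0.00414). When 1 array was left out, signs turned for Canx (-0.0309 to 0.019), Derl2 (-0.0454 to 0.0464), Dnajb9 (-0.0455 to 0.135), Herpud1 (-0.285 to 0.0067), Hsp90b1 (-0.0223 to 0.015), Pdia3 (-0.0213 to 0.0274), Pdia4 (-0.000475 to 0.0716), Sec24d (-0.0547 to 0.051), Sec61a1 (-0.00866 to 0.0491), Sec63 (-0.0423 to 0.0149), Ssr3 (-0.04 to 0.0145) and Xbp1 (-0.00352 to 0.12). Herpud1, at -0.13 in the main fit, was the change furthest from 0 among those that turned. The causes of these shifts were not tested.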
